A study of Mus musculus with 10 samples.

Results

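Genes for lysosomal enzymes, lysosomal membrane proteins and the vacuolar ATPase (V-ATPase) were followed in the cerebellum of Bmal1-/- and Bmal1+/+ mice. They were 26 named lysosomal genes and every gene whose symbol starts with Atp6v, each with a deposited mean read count of at least 20. The rule gave 42 of the 22046 genes in the table, 13331 of which reached that count. It kept all 26 named genes and 16 of 23 Atp6v genes. The lowest gene inside the limit was Naglu, with a mean read count of 324. The 7 genes outside it (Atp6v1g3, Atp6v0d2, Atp6v1fnb, Atp6v0a4, Atp6v1b1, Atp6v1c2 and Atp6v1e2) had a mean read count of 0. That mean is geometric, so 1 library without reads sets it to 0. Their highest value in any library was 2.39 RPKM, for Atp6v0a4, which was at 0 in only 1 of the 8 libraries analysed. RPKM is reads per kilobase, scaled to the total reads of the library, and the length the authors divided by is not stated.

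BMAL1, the product of the gene Arntl, is the transcription factor that pairs with CLOCK to drive the circadian clock. Knockout and wild-type animals were littermates from Bmal1+/- parents, on a C57BL/6 background, under a 12 h light and 12 h dark schedule. The deletion was inherited and thus present in all cells. The protocol also describes a Purkinje cell knockout made with L7-Cre, but no library analysed here carries that genotype. Age, sex and the hour of dissection are not given in the sources used here. From each lysate, RNA fragments of 28 to 34 nt protected by ribosomes (footprints) and heat-fragmented total RNA were sequenced, and values were available for 8 of 10 libraries: both kinds from knockout animals 1 and 3 and wild-type animals 2 and 3, so that n = 2 in every group. Total RNA of knockout 2 and wild type 1 was not analysed here.

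Recovered reads in total RNA numbered 38.9 M and 43.2 M in the knockout and 25.6 M and 27.8 M in the wild type, and footprint libraries held 27.7 M to 41.0 M. The 42 genes had between 145 reads in a library (Atp6v0c) and 193402 (Psap). The targeted gene had more total RNA in the knockout (Arntl, 267 and 272 RPKM against 179 and 179; log2 difference 0.59, limma adjusted p = 0.0158). Its footprints were 124 and 107 RPKM in the knockout and 258 and 295 in the wild type (adjusted p = 0.0589). Footprints over total RNA stood at 0.463 and 0.393 in the knockout and at 1.44 and 1.64 in the wild type (adjusted p = 0.0367). Since the deleted exons are not named in the sources used here, total RNA summed over the gene does not check a genotype, whereas the footprints of the genotypes lay apart. Markers of Purkinje cells (9500 to 11700 RPM, reads scaled to the library total, summed over 10 genes) and of granule neurons (6760 to 8540, over 12 genes) were abundant in every total RNA library, so the defining markers of the labelled tissue were present. Choroid plexus markers were not even: their sum was 1870 and 2200 RPM in knockout total RNA, 876 in wild type 2 and 66.4 in wild type 3.

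Lysosomes break down proteins, sugars and lipids with acid hydrolases. The V-ATPase supplies the acid: its V1 sector hydrolyses ATP and its membrane sector V0 passes protons into the lumen, and in neurons the same pump also acidifies synaptic vesicles. Many lysosomal genes carry the CLEAR element, which the transcription factor TFEB binds when the nutrient-sensing kinase mTORC1 is inactive. The core of that element, CACGTG, is the same hexamer as the E-box that BMAL1 and CLOCK bind. Several lysosomal diseases, among them Niemann-Pick disease type C, cause loss of Purkinje cells.

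The hexamer CACGTG was common upstream of these genes. RefSeq promoters (GRCm38.p6, 250 bases before to 50 after the start) were found for 34 of the 42 genes, not for Asah1, Atp6v0a2, Atp6v1b2, Atp6v1c1, Atp6v1g1, Atp6v1h, Ctsb and Npc1. CACGTG, which reads the same on both strands, was in 17 of 34 (50.0%), against 8.09% of all 27025 genes with a promoter and 11.6% of the 10450 at the read limit. TCACGTGA, the inner part of the CLEAR element, which contains CACGTG, was in 8 of 34 (23.5%) against 1.12% and 2.09%. A D-box, TTATGTAA on either strand, the site of another clock output, was in 0 of 34 against 1.11% and 0.67%. Of 26 CACGTG matches in the 34 genes, 24 began upstream of the start. In 11 genes a match began within 100 bases upstream. The match of Atp6v0d1, counted in both, began 3 bases before the start and ran across it. The stretches that follow show how the hexamer sits in 9 of the 17 genes, 5′ to 3′ on the gene's strand, with CACGTG in capitals: Lamp1, with 4 matches, the most of any gene here, at chr8:13159088-13159160 (plus strand), Mcoln1 at chr8:3500436-3500491 (plus), Ctsa at chr2:164833749-164833772 (plus), Ctsd at chr7:142387908-142387937 (minus), Gla at chrX:134601182-134601244 (minus), Atp6v1a at chr16:44139373-44139402 (minus), Atp6v0b at chr4:117887330-117887377 (minus), Ctsl at chr13:64370739-64370768 (minus) and Arsa at chr15:89477425-89477452 (minus).
Lamp1: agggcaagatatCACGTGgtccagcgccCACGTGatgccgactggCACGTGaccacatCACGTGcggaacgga
Mcoln1: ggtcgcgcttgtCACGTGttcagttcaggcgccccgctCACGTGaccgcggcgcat
Ctsa: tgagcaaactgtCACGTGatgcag
Ctsd: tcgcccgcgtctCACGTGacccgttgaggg
Gla: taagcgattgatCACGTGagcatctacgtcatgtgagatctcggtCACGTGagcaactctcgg
Atp6v1a: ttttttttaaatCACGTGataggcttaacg
Atp6v0b: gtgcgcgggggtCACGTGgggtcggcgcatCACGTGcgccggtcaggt
Ctsl: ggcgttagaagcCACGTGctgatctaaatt
Arsa: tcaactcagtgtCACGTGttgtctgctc
Ctsa and Ctsd each had 2 matches. Only the upstream match of Ctsa and the match of Ctsd nearer the start are shown. A match is a run of letters in the genome and no measurement of a factor's binding.

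None of the 42 genes passed the test in any comparison of knockout with wild type. In total RNA, limma on log2(RPKM + 1) called 519 of 12690 genes at an adjusted p under 0.05 (4.09%) and 0 of the 42. At an unadjusted p under 0.05 there were 2810 genes (22.1%) and 5 of the 42 (11.9%): Ctsl, Atp6v0a1, Arsa and Ctsz, higher in the knockout, and Gla, lower. An alternative test on the recovered reads, limma-voom, called 1471 of 12390 genes (11.9%) and 2 of the 42, Ctsl and Atp6v0a1. In footprints, 29 of 12447 genes were called (0.233%) and 0 of the 42. At an unadjusted p under 0.05 the share was 10.4% of all genes and 1 of the 42, again Ctsl, and limma-voom called 207 genes (1.69%) and none of the 42. For efficiency, the ratio of footprints to total RNA tested as the interaction of genotype with kind of library, 2 of 12089 genes were called (0.0165%) and 0 of the 42. At an unadjusted p under 0.05 the share was 4.55%, with 1 of the 42, Atp6v1f, and limma-voom called 1 gene (0.00835%), not one of the 42.

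The differences were small on the log2(RPKM + 1) scale, and their intervals bounded them there. In total RNA the 95% interval lay within 1.5-fold in either direction for 41 of the 42 genes and within 2-fold for all 42. In footprints 32 lay within 1.5-fold and 42 within 2-fold, and for efficiency 29 and 41. The exception at 2-fold on that scale was Naglu, whose efficiency interval reached down to -1.13. At a few RPKM, as for Sgsh, Glb1, Atp6v0e and Cln3, the added 1 shrinks differences and intervals. For such genes these limits do not bound the fold change itself. Sgsh efficiency was estimated at -0.35 here and at -0.56 with limma-voom. The median log2 difference, knockout minus wild type, was 0.038 over the 42 genes in total RNA and -0.017 over all genes tested. Of the 42, 25 were above 0, beside 46.7% of all genes tested. In footprints the medians were 0.026 and -0.028, again with 25 of the 42 above 0, beside 44.8% of all genes. For efficiency they were -0.035 and -0.018, with 18 of the 42 above 0, beside 46.6%. Values of the genotypes did not overlap in total RNA for 26 of the 42 genes (55.0% of all genes), 15 higher in the knockout (24.7% of all genes) and 11 lower (30.3%). In footprints they did not overlap for 16 (39.7%), 9 higher (17.1%) and 7 lower (22.6%), and for efficiency for 11 (31.7%), 2 higher (14.2%) and 9 lower (17.5%). With 2 animals a group such separation is common, as the shares over all genes show. Reads of all 42 genes together made up 7710 and 7884 RPM in knockout total RNA and 7382 and 7746 in the wild type, and 15180 and 15240 against 14850 and 14750 RPM in footprints.

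**Figure D1:**
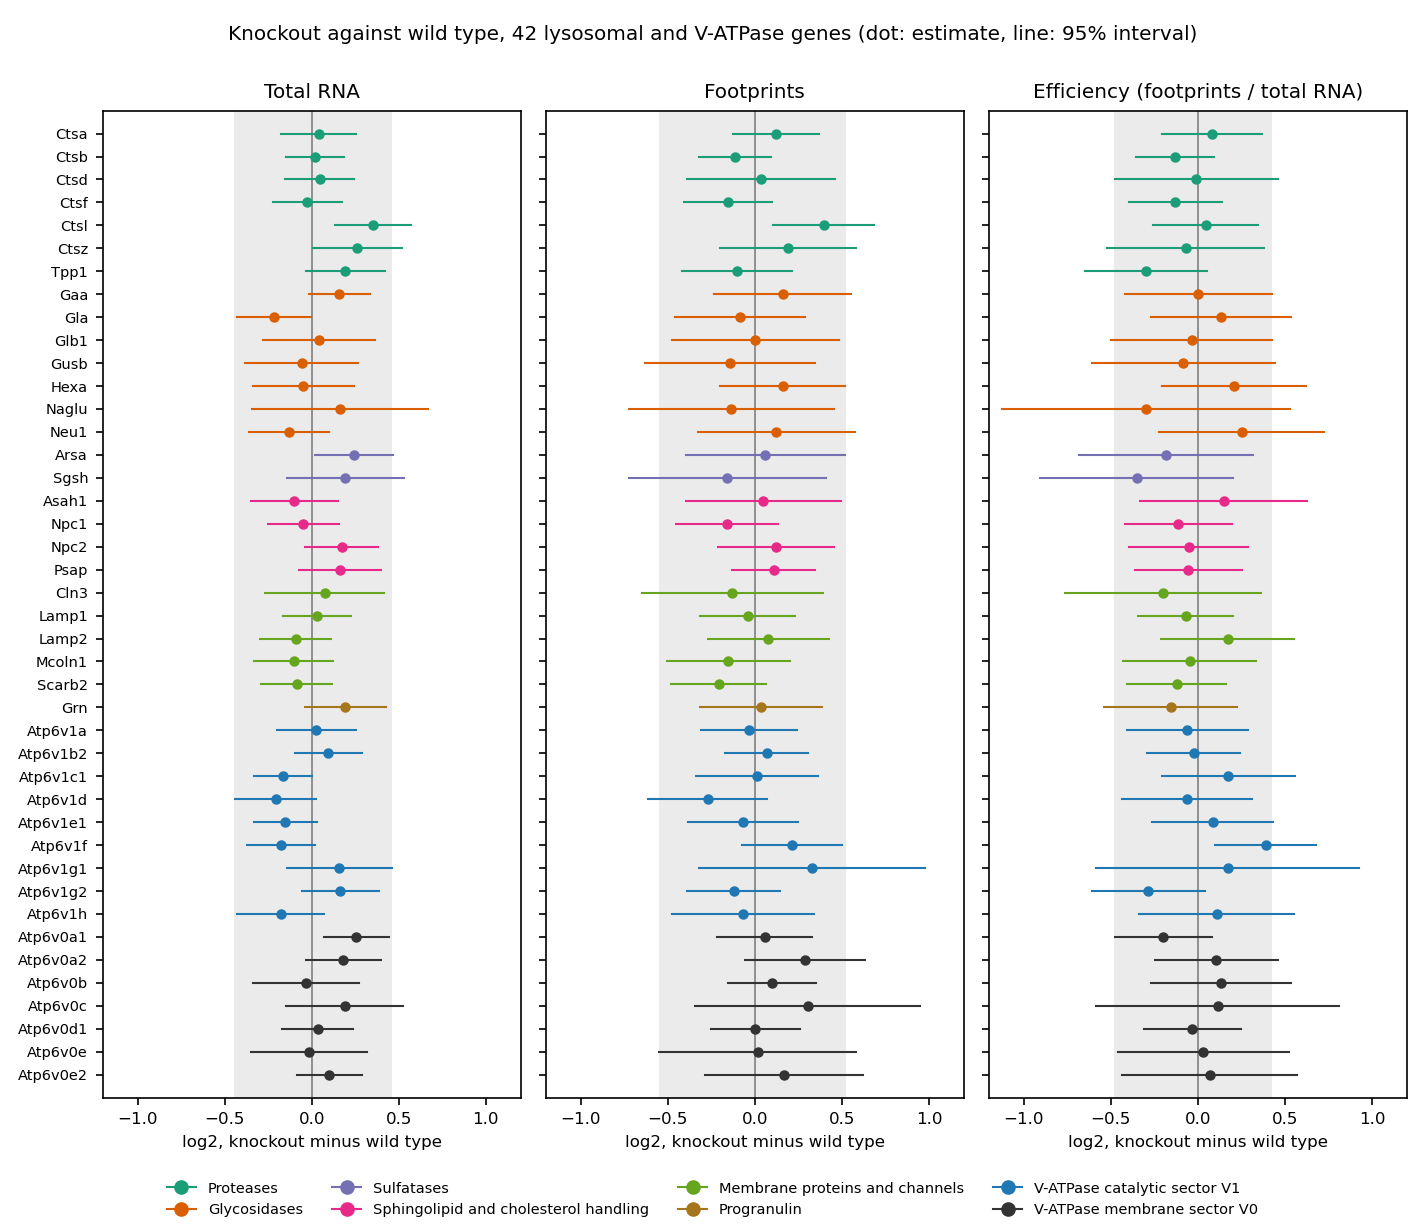
Log2 difference, knockout minus wild type, for each of the 42 genes (rows, coloured by class) in total RNA, footprints and efficiency, as limma's estimate (dot) with its 95% interval (line); grey bands span the 5th to 95th percentile of all genes tested. Estimates run from -0.22 (Gla) to 0.35 (Ctsl) in total RNA, from -0.27 (Atp6v1d) to 0.40 (Ctsl) in footprints and from -0.35 (Sgsh) to 0.39 (Atp6v1f) for efficiency, all inside the bands.

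Among the 7 proteases, cathepsin L stood highest. Ctsl (ENSMUSG00000021477, chr13:64359337-64370890), a cysteine protease, had 67.1 and 71.2 RPKM in knockout and 52.7 and 55.1 in wild-type total RNA. Its footprints were 142 and 136 RPKM in the knockout and 107 and 104 in the wild type. Both knockout values were above both wild-type values in either kind of library. The log2 difference was 0.35 in total RNA (SE 0.09, limma adjusted p = 0.0926, limma-voom adjusted p = 0.00463) and 0.40 in footprints (SE 0.12, adjusted p = 0.321, limma-voom 0.0938). Its efficiency was 2.12 and 1.90 in the knockout and 2.03 and 1.89 in the wild type. Exons of Ctsl share bases with an antisense gene and a processed pseudogene in the annotation, and how the authors counted such reads is not stated. Ctsz, cathepsin Z, had 71.2 and 68.1 RPKM in knockout and 53.8 and 62.3 in wild-type total RNA (log2 difference 0.26, SE 0.10, adjusted p = 0.216). That difference was 0.16 without wild type 2 and 0.37 without wild type 3. The groups lay apart in total RNA, but in footprints (101 and 129 against 98.3 and 102) they overlapped.

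Ctsd, the aspartic protease of the lysosome, showed no such gap. Its total RNA was 359.4 and 393 RPKM in the knockout and 359.9 and 368 in the wild type, and its footprints were 349 and 472 against 385 and 408. Knockout 1 was the lowest and knockout 3 the highest library in both kinds. Tpp1, the peptidase lost in a childhood form of neuronal ceroid lipofuscinosis, had total RNA of 83.2 and 76.0 RPKM in the knockout and 71.1 and 67.7 in the wild type (log2 difference 0.19, SE 0.09, adjusted p = 0.284). Its footprints, 179 and 199 against 213 and 192, overlapped. The efficiency of Tpp1 was accordingly 2.15 and 2.62 in the knockout and 3.00 and 2.84 in the wild type, without overlap (-0.30, SE 0.15, adjusted p = 0.997). That efficiency difference was -0.16 without knockout 1 and -0.44 without knockout 3. Over all genes tested in total RNA, 46.7% of estimates were above 0. Of the 7 proteases, 6 had a total RNA estimate above 0, with a median of 0.045, and all but Ctsf were among them. After quantile normalization 5 were above 0, and without knockout 1 it was 4.

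Glycosidases, which remove sugars from glycoproteins and glycolipids, were split in total RNA, with 3 of 7 estimates above 0, beside 46.7% of all genes. Their median of -0.047 became 0.069 without wild type 3 and -0.17 without wild type 2. Gla, the alpha-galactosidase deficient in Fabry disease, had the lowest estimate of the 42 genes in total RNA, -0.22. In the sulfatases, Arsa, which cleaves sulfatide of myelin, had 52.4 and 56.2 RPKM in knockout and 44.5 and 46.9 in wild-type total RNA. The groups lay apart, but the difference did not pass (0.24, SE 0.09, adjusted p = 0.201). Its footprints, 77.4 and 95.7 against 73.0 and 93.3 RPKM, differed between animals of 1 genotype more than between genotypes. Sgsh, the other sulfatase, had the lowest efficiency estimate of the 42 genes, -0.35 (SE 0.24, adjusted p = 0.997). At about 2 RPKM the pseudocount shrinks this value, and limma-voom on the reads gave -0.56 (adjusted p = 0.987). Genes of sphingolipid and cholesterol handling (Psap, Asah1, Npc1 and Npc2) had total RNA estimates from -0.10 to 0.17.

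Among lysosomal membrane proteins, the genotypes were closest for Lamp1 in total RNA, while footprint estimates were mostly below 0. Lamp1, a heavily glycosylated protein that lines the lysosomal membrane, had total RNA of 107.9 and 108.1 RPKM in the knockout and 105.9 and 105.7 in the wild type. Its footprints were 203 and 205 RPKM against 207 and 214. The 4 total RNA values of Lamp1 thus lay within a few percent of each other, and its log2 differences were 0.03 (95% interval -0.17 to 0.23) and -0.04 (-0.32 to 0.23). Scarb2, the receptor that carries glucocerebrosidase to the lysosome, had footprints of 232 and 230.2 RPKM in the knockout and 261 and 273 in the wild type. Both knockout values were lower (-0.21, SE 0.11, adjusted p = 0.618). Its total RNA was 162 and 164 against 166 and 179.5 RPKM. In footprints, 4 of the 5 membrane proteins (Lamp1, Scarb2, Mcoln1 and Cln3) had estimates below 0 and Lamp2 had one above 0. Over all genes tested in footprints, 44.8% were above 0. Grn encodes progranulin, a secreted and lysosomal protein whose loss causes frontotemporal dementia or, with both copies gone, a ceroid lipofuscinosis. Its total RNA was 39.7 and 42.4 RPKM in the knockout and 34.5 and 37.1 in the wild type. That difference did not pass (0.19, SE 0.10, adjusted p = 0.303), and its footprints, 76.5 and 91.0 against 80.0 and 82.9 RPKM, overlapped.

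The V1 sector of the V-ATPase had 4 of 9 total RNA estimates above 0, against 46.7% of all genes, and a median of -0.15. Atp6v1a, the catalytic subunit, had total RNA of 1998 and 2248 RPKM in the knockout and 1968 and 2198 in the wild type. Its footprints were 3079 and 3596 RPKM against 3388 and 3425. The groups overlapped in both. Atp6v1d, a subunit of the central rotor, had footprints of 86.8 and 77.1 RPKM in the knockout and 104.5 and 93.7 in the wild type (-0.27, SE 0.14, adjusted p = 0.595). Its total RNA, 37.0 and 40.0 against 46.1 and 43.1 RPKM, was also lower in both knockout animals (-0.21, SE 0.10, adjusted p = 0.273), so that its efficiency overlapped between genotypes.

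Atp6v1f, another subunit of the V1 sector, was the gene of the 42 with the smallest efficiency p. Its total RNA was 203 and 205 RPKM in the knockout and 238 and 224 in the wild type. Its footprints went the other way, 224 and 208 against 184 and 188 RPKM. The ratio was thus 1.10 and 1.01 in the knockout and 0.772 and 0.841 in the wild type, a log2 difference of 0.39 (SE 0.12) with an unadjusted limma p of 0.0151 and an adjusted p of 0.978. Atp6v1g2, the stator subunit found mainly in neurons, had total RNA of 1844 and 1755 RPKM in the knockout against 1724 and 1493. Its efficiency was 0.831 and 0.980 in the knockout and 1.01 and 1.198 in the wild type (-0.29, SE 0.14, adjusted p = 0.997). That difference was -0.17 without knockout 1 and -0.17 without wild type 3, but -0.41 without knockout 3 and -0.41 without wild type 2. The 2 subunits thus had efficiency estimates of opposite sign, and neither passed.

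The membrane sector V0 had estimates above 0 for all 7 genes in footprints, with a median of 0.10, where 44.8% of all genes tested were above 0. Those estimates ran from 0.0025 (Atp6v0d1, SE 0.10) to 0.30 (Atp6v0c, SE 0.26), and Atp6v0e was at 0.016 (SE 0.23). None of the 7 was called. The count was also 7 with quantile normalization and limma-voom, but it was 5 without wild type 2 or without wild type 3 and 6 without knockout 3, when medians ran from 0.029 to 0.15. Atp6v0a1, the large subunit that predominates in neurons, had total RNA of 253.2 and 252.8 RPKM in the knockout and 208 and 215 in the wild type. The knockout animals agreed closely and lay above both wild-type animals (0.26, SE 0.08, adjusted p = 0.134, limma-voom adjusted p = 0.0209). Its footprints, 508 and 529 against 477 and 520.1 RPKM, overlapped, and its efficiency was 2.01 and 2.09 in the knockout and 2.29 and 2.42 in the wild type (-0.20, SE 0.12, adjusted p = 0.997). Atp6v0a2, the isoform of that subunit linked to the Golgi, had footprints of 57.6 and 62.5 RPKM in the knockout and 52.0 and 46.1 in the wild type (0.29, SE 0.14, adjusted p = 0.568). Its total RNA also lay apart, at 99.1 and 96.1 against 82.7 and 89.3 RPKM. Atp6v0c, the proteolipid of the proton-carrying ring, had total RNA of 15.8 and 19.1 RPKM in the knockout and 13.8 and 16.5 in the wild type, with overlap. Its footprints, 3.96 and 5.71 against 3.05 and 4.40 RPKM, rest on the fewest reads of the 42 genes, and it has 2 named pseudogenes that could share its reads.

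**Figure D2:**
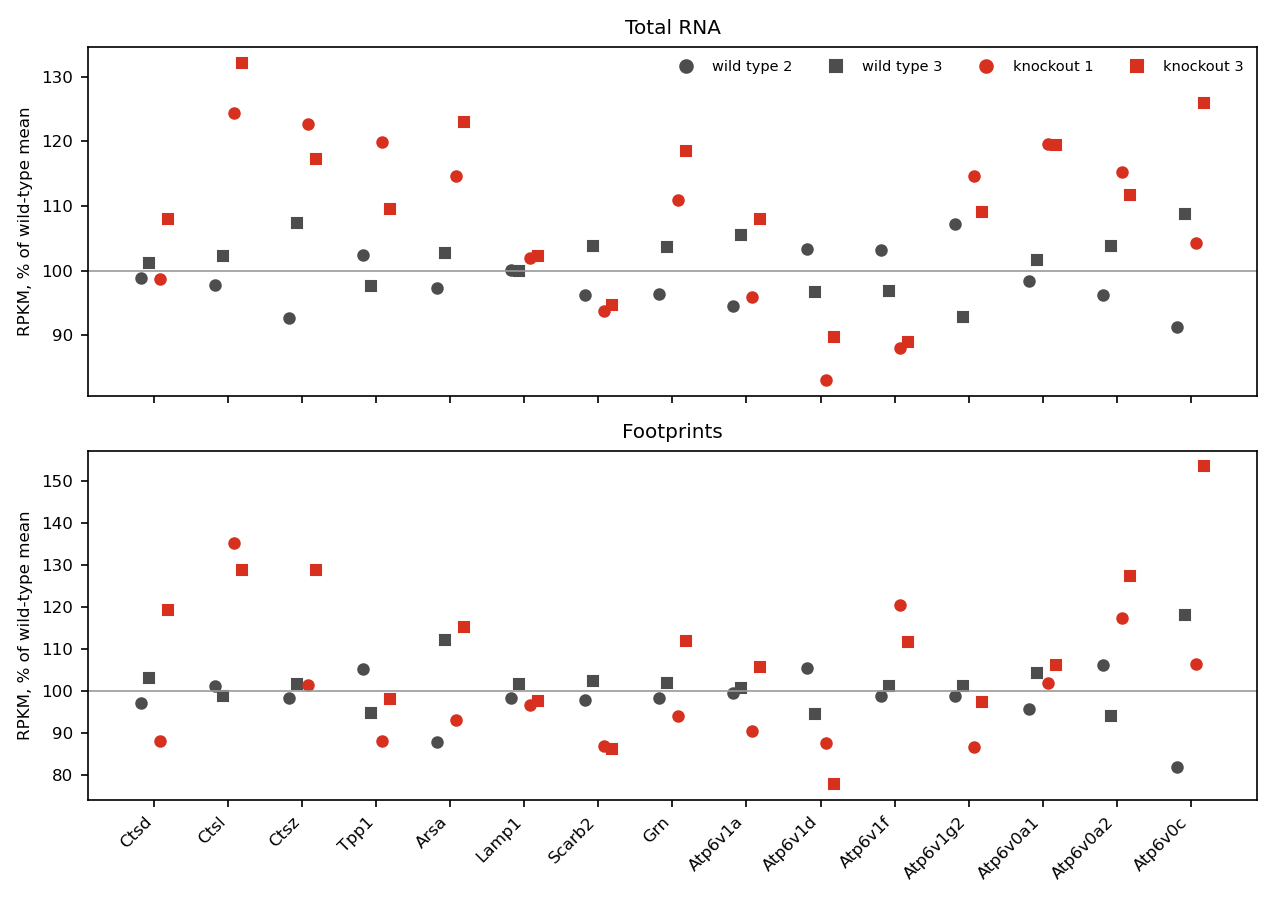
RPKM of 15 of the 42 genes in total RNA (top) and footprints (bottom), each as a percentage of that gene's wild-type mean; grey symbols are wild-type animals 2 and 3, red symbols knockout animals 1 and 3. Both knockout values of Ctsl lie above both wild-type values in either panel, those of Atp6v1f lie below in total RNA and above in footprints, and those of Ctsd spread to either side.

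Footprints per unit of RNA were high for this group of genes. RPKM was compared only within a gene, since the length used by the authors is not stated. In total RNA of knockout 1, Ctsb had 3932 RPKM from 22388 reads and Atp6v0e 1.43 RPKM from 968. The length behind the values thus differed widely between genes. The ratio of footprints to total RNA is free of that length and can be set side by side. In the wild type the median ratio was 1.87 over the 42 genes and 0.961 over the 13331 genes at the read limit, and 35 of the 42 were above the latter. Among the 9608 genes with at least the mean read count of Naglu, a limit added after the data were seen, the median was 0.979, and 15.4% of genes exceeded 1.87. In the knockout the median of the 42 genes was 1.80. The proteases had a wild-type median of 1.96, with all 7 above the median of all genes. The medians were 1.54 for glycosidases, 2.06 for sphingolipid and cholesterol genes and 1.88 for membrane proteins. Grn stood at 2.28.

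V-ATPase genes covered the widest range. They were also the largest group, 16 genes against 7 proteases and 7 glycosidases. Some encode alternative isoforms of 1 subunit, such as Atp6v0a1 and Atp6v0a2. Atp6v1h, a regulatory subunit of V1, had the highest ratio of the 42 genes, 3.51 and 3.29 in the wild-type animals, at the 97.7th percentile of all genes at the read limit. Atp6v1e1, a stator subunit, followed at 3.26 and 3.33, and the 2 did not differ beyond their spread. Atp6v0d1, which joins the V0 ring to the central stalk, had 2.85 and 2.72. At the other end, Atp6v0c had 0.221 and 0.267, at the 5.24th percentile, and Atp6v1g1 had 0.453 and 0.399. The Atp6v0c ratio rests on 145 and 152 wild-type footprint reads, and its 2 named pseudogenes could share reads. The bearing of these on its ratio was not tested. The median was 2.01 for V1 and 1.10 for V0. Of 7 genes below the median of all genes, 5 belonged to the V-ATPase (Atp6v0c, Atp6v1g1, Atp6v0e2, Atp6v0a2 and Atp6v1f), and the other 2 were the glycosidases Neu1 and Naglu. The part of each transcript that was counted is not stated, and its bearing on this ratio was not tested.

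**Figure D3:**
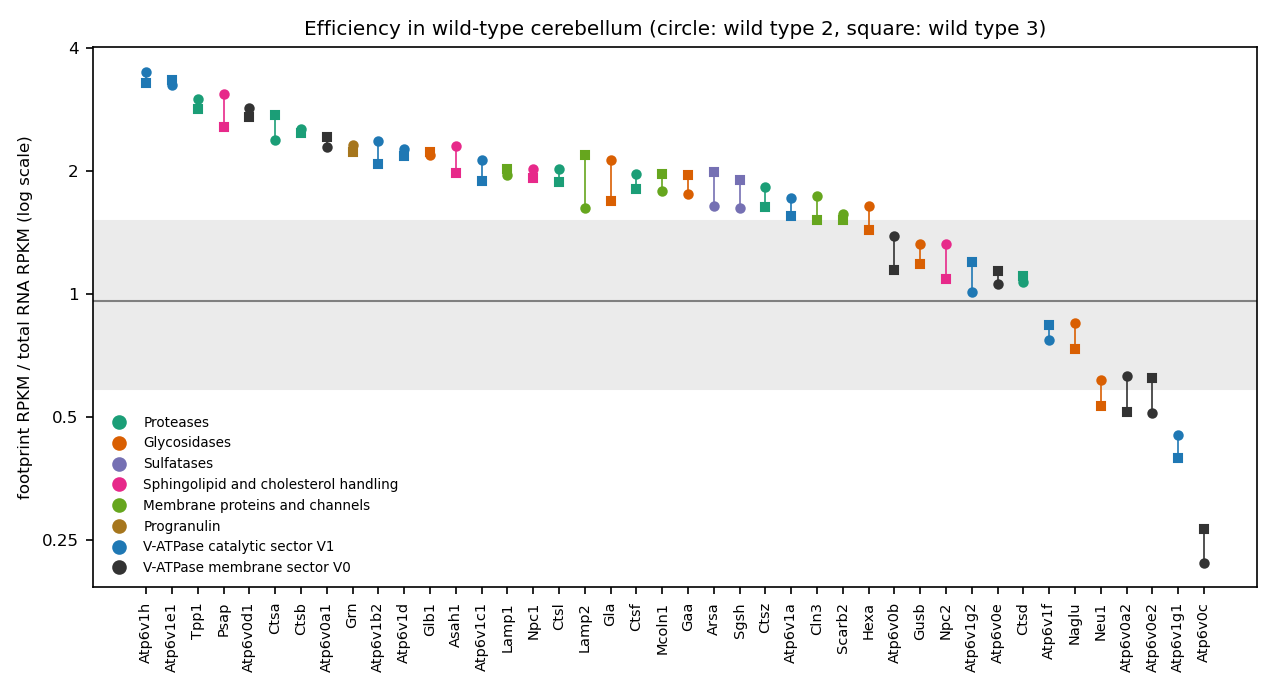
Ratio of footprint to total RNA RPKM (log axis) of each of the 42 genes in wild-type animals 2 (circle) and 3 (square), ordered by mean and coloured by class; the grey line and band are the median (0.961) and middle 50% of 13331 genes. The values run from Atp6v1h (3.51 and 3.29) to Atp6v0c (0.221 and 0.267), and the animals lie close together for most genes.

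Differences were also set beside the promoter matches, as a description. The 17 genes with CACGTG had a median log2 difference of 0.041 in total RNA, from -0.22 (Gla) to 0.35 (Ctsl) and 12 above 0, and the 17 with a promoter and no CACGTG had a median of 0.10, from -0.21 (Atp6v1d) to 0.26 (Ctsz) and 9 above 0. In footprints the medians were 0.0025 and 0.077. For efficiency the estimates ran from -0.35 (Sgsh) to 0.13 (Atp6v0b) with CACGTG and from -0.30 (Tpp1) to 0.39 (Atp6v1f) without. With TCACGTGA, the 8 genes had total RNA estimates from -0.22 (Gla) to 0.074 (Cln3) and a median of 0.031. Lamp1, with the 4 matches shown earlier, had a total RNA difference of 0.03, Mcoln1 -0.10 and Ctsl 0.35. Over all genes tested in total RNA, 35 of 1168 with CACGTG were called (3.00%) and 356 of 8752 with a promoter and no CACGTG (4.07%). In footprints the shares were in the other order, 5 of 1152 (0.434%) and 18 of 8579 (0.21%). These are counts over a single hexamer in a short window, with no test of their difference.

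**Figure D4:**
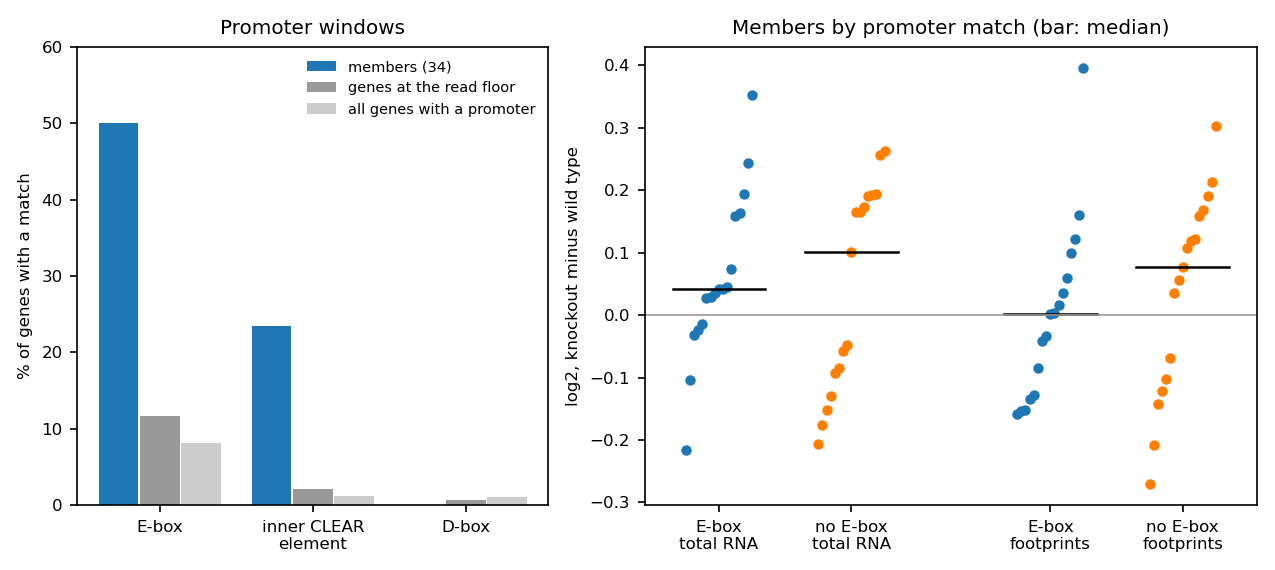
Left, the percentage of genes whose promoter holds CACGTG (E-box), TCACGTGA (inner CLEAR element) or TTATGTAA (D-box) among the 34 genes with a promoter, genes at the read limit and all genes with a RefSeq promoter. Right, the log2 difference, knockout minus wild type, of the 17 genes with and the 17 without CACGTG in total RNA and footprints, with bars at the medians (0.041 and 0.10; 0.0025 and 0.077).

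Other genes of the lysosome were examined in 4 lists, and 4 genes of these lists passed in total RNA, where 4.09% of all genes tested did, so that the lists held called genes at about the general rate. Of 44 further lysosomal enzymes and membrane proteins, 2 rose and 1 fell (315 genes rose and 204 fell among all 12690). Abca2, a lipid transporter of the lysosomal membrane, was 38.5 and 34.9 RPKM in the knockout and 24.6 and 25.2 in the wild type (log2 difference 0.54, SE 0.10, limma adjusted p = 0.0421). Gm2a, the activator protein that presents ganglioside GM2 to hexosaminidase A, was 20.1 and 18.6 against 12.9 and 13.1 RPKM (0.54, SE 0.10, adjusted p = 0.0454). Ctss, cathepsin S, which brain microglia express most, was 41.6 and 43.9 against 64.1 and 60.2 RPKM (-0.53, SE 0.09, adjusted p = 0.0373). In the same libraries, 11 of 12 tested microglial markers had estimates below 0, and their summed level was 116 and 119 RPM in the knockout and 152 and 162 in the wild type. Of these markers only C1qb passed (-0.57, adjusted p = 0.0453), and the part of microglial RNA in the value of Ctss was not tested. In bulk tissue, fewer cells of a type and less RNA per cell cannot be told apart.

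Of 25 genes of lysosomal transcription and nutrient sensing, 1 passed, Tfeb, a share near the 4.09% of all genes. The transcription factor's total RNA was 98.5 and 112 RPKM in the knockout and 148 and 177 in the wild type (-0.62, SE 0.12, adjusted p = 0.0476, limma-voom 0.0124). Both knockout values were lower. In footprints Tfeb was 95.4 and 114 against 149 and 113 RPKM, with overlap (-0.31, SE 0.18, adjusted p = 0.671). Its relatives Tfe3 (-0.10, SE 0.11, adjusted p = 0.648) and Mitf (0.06, SE 0.10, adjusted p = 0.756) did not pass. Each of the 4 calls was lost with all libraries in 1 fit, with no filter, and without knockout 1 or knockout 3, with adjusted p from 0.0871 to 0.305, and also without at least 1 wild-type animal (0.0648 to 0.0938). Ctss and Tfeb missed the threshold with quantile normalization (0.0505 and 0.0526), and Tfeb with pseudocount 0.1 (0.0519), while limma-voom called all 4. None of 12 tested accessory and assembly genes of the V-ATPase passed, among them Atp6ap1 (0.04, adjusted p = 0.872) and Atp6ap2 (-0.14, adjusted p = 0.321), nor did any of 11 genes that deliver enzymes to the lysosome. No gene of the 4 lists was called in footprints or for efficiency.

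Marker lists of other cell types also held called genes in total RNA, to be read against the 4.09% of all genes. All 7 tested choroid plexus markers had estimates above 0, and 2 passed (Prlr and Sostdc1). Granule neuron markers had 9 of 12 above 0, with 3 called higher (Fat2, Grin2c and Tiam1). Oligodendrocyte markers had 7 of 8 below 0, with Mag called lower, and 0 of 10 Purkinje cell markers were called. Astrocyte and Bergmann glia markers had 4 of 8 above 0, with S100b called lower. Endothelial markers had 4 of 5 above 0, with Cldn5 called higher. Brainstem markers had 1 of 7 above 0 (Tph2, called higher) and a median of -0.98, with Slc17a6 called lower. The summed level of brainstem markers was 84.8 and 88.2 RPM in knockout total RNA and 130 and 126 in the wild type. In footprints 0 of 5 tested brainstem markers were above 0. No gene of any marker list was at 0 in every library. Without wild type 3, the library with the least choroid plexus RNA, the median log2 difference of the 42 genes was 0.066 in total RNA, 0.028 in footprints and -0.041 for efficiency, and 0 of the 42 were called. The part of cell makeup in the values of the 42 genes was not tested.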

How the data were processed

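Total RNA and ribosome footprints of mouse cerebellum were analysed in 8 libraries. The authors deposited RPKM per gene and library, the ratio of footprint to total RNA RPKM per animal (TE), and a mean read count per gene. Bowtie, STAR, Cufflinks and build mm10 are named per the submitters' processing notes; versions, roles, counting rule and gene length are not given in the sources used here. The deposited mean read count was the geometric mean of the 8 libraries' reads. The deposited ratio matched the RPKM ratio within 2% in 56065 of 56065 values. Whole reads were recovered from RPKM for 13880 genes, and 99.93% of 4392 values of genes under 20 mean reads lay within 0.1 of a whole number.

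R 4.3.3 and limma 3.58.1 (trend option) were used to compare genotypes on the log2(RPKM + 1) scale, in genes whose mean RPKM was at least 1. "Called" means a Benjamini-Hochberg adjusted p under 0.05 over all genes tested. With pseudocount 1, log2 differences of genes at few RPKM are understated, even where reads are many. The fits were tested on simulated data. With 2 animals a group, p-values rest only on the spread between these animals. The fit draws each gene's variance towards that of genes of similar level. Alternatives were pseudocount 0.1, other filters, quantile normalization, limma-voom on recovered reads, all libraries in 1 fit, an animal block and leaving out each animal. Named genes were the 4 with the smallest p in each comparison, any called, and Lamp1, Ctsd, Grn, Tpp1, Atp6v1a and Atp6v0c. Genes, lists and rules were chosen with earlier results of these data known. Positions come from GENCODE M21 and RefSeq, both on GRCm38. Of the 42 genes, 18 share exon bases with another gene in that annotation, and strand use in counting is not stated. The design was written for 10 libraries; 8 have values here.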

Additional observations from a re-analysis of the deposited data

How the results depend on the processing

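With 2 animals a group, 95% intervals reached a median of 0.22 (total RNA), 0.35 (footprints) and 0.38 (efficiency) log2 units to either side of the estimate, and smaller differences of single genes cannot be resolved. No gene of the 42 was called under any alternative in any comparison, except 2 in total RNA with limma-voom (Ctsl and Atp6v0a1). Leaving out 1 animal at a time gave 0 to 0 called genes, with the lone animal of a group assumed to vary like the others, and medians over the 42 genes of 0.0079 to 0.0764 in total RNA, -0.0123 to 0.0561 in footprints and -0.0414 to -0.019 for efficiency. With the animal as a replicate block, which pairs the 2 libraries of one lysate, the efficiency fit called 0 of the 42 genes and its median stayed at -0.0353; the block changed no call of a named gene. For total RNA and footprints, no paired analysis was possible, since the labels give replicate numbers but no pairing of knockout with wild-type animals. Among named genes of the 42, signs turned for 3, each with an estimate near 0. Atp6v1a turned in total RNA with quantile normalization (-0.0178) and, without single animals, ranged from -0.0578 to 0.1118 in total RNA, -0.1458 to 0.078 in footprints and -0.133 to 0.0111 for efficiency. Ctsd turned for efficiency with quantile normalization (0.0361) and in the same order ranged from -0.0187 to 0.1094, -0.1828 to 0.2536 and -0.1641 to 0.1443, and Grn footprints from -0.0876 to 0.159. Over all genes, total RNA calls numbered 26 with no filter, 217 with all libraries in 1 fit, 798 from a mean read count of 100, 1471 with limma-voom and 117 to 563 without single animals, against 519; footprint calls numbered 1, 315, 57, 207 and 1 to 6 against 29, and 17 with pseudocount 0.1; efficiency calls numbered 0 to 5 against 2. The cause of these changes was not tested.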
